A study of Homo sapiens with 3 samples.

Results

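The HOX genes of NCI-H23 cells were examined with and without knockdown of USP16. Members were all rows whose symbol is HOXA, HOXB, HOXC or HOXD followed only by digits, which gave 39 of the 50868 genes in the files. HOXA contributed 11 of them, HOXB 10, HOXC 9 and HOXD 9. NCI-H23 is an established human lung adenocarcinoma line. The control group was 1 mRNA library from cells transfected with control siRNA, and the knockdown group was 2 libraries, numbered 1 and 2 in their titles, from cells transfected with siRNA against USP16. The labels give no siRNA sequence, dose or time, and do not say whether the knockdown libraries come from different siRNAs or from separate cultures, so a p-value covers no more than the spread among these libraries, and that spread may be technical. In knockdown library 2, the header of the counts reads 6 in place of 2.

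HOX genes encode homeodomain transcription factors that lay out the head-to-tail axis of the embryo. They sit in 4 clusters, and genes of the same number in different clusters are paralogs that descend from 1 ancestral gene. Low-numbered (anterior) genes lie at the 3' end of a cluster and are used toward the head, and high-numbered (posterior) genes lie at the 5' end and are used toward the tail. Polycomb complexes keep silent HOX genes repressed, in part through ubiquitin on histone H2A, and trithorax complexes such as that of KMT2A keep active ones on. USP16, also called Ubp-M, removes ubiquitin from H2A and has been reported to act on HOXD10 in HeLa cells. HOX levels after its knockdown are therefore described here, though 1 control library leaves little power to test them.

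The libraries held 14007161 counts in the control and 13956382 and 15071179 in knockdown libraries 1 and 2. USP16 itself had 632, 109 and 245 counts, a scaled level 83.8% and 66.8% below the control. Even so, USP16 did not pass the test of knockdown against control given below. Of 8 lung markers, SFTPA1, SFTPB, SFTPC and SCGB1A1 had 0 counts in each library, and NKX2-1 (6, 4 and 10) and FOXA2 (1, 1 and 3) were near 0, while NAPSA had 20, 20 and 9 and FOXA1 had 144, 64 and 143. Of 8 blood and endothelial markers, CD14 was the only one above 20 counts in any library, and PTPRC had 0, 0 and 1. The 6 fibroblast markers summed to 77.5, 71.3 and 60.9 CPM, counts relative to the scaled library size, most of it COL1A1 (918, 881 and 700 counts). LUM (20, 26 and 140) and PDGFRB (42, 40 and 72) were highest in library 2, and DCN (0, 2 and 2) and COL1A2 (5, 7 and 6) were near 0. The 6 epithelial markers summed to 409, 239 and 365 CPM, and 5 of them were lower in both knockdown libraries (33.5% of all genes tested), among them KRT8 (2214, 1118 and 1880 counts), CDH1 (142, 39 and 93) and KRT7 (81, 23 and 49). EPCAM (38, 161 and 232) was higher in both. The part of these differences in the HOX values was not tested. Where a gene is followed by 3 values, the control comes first, then library 1 and library 2 of the knockdown. Genes outside the naming rule are named with their values already seen. A fold is the ratio of scaled counts in a knockdown library to the control, with a 95% interval that covers counting error only. Log2 changes, and counts of genes past 2-fold, rest on CPM with a prior count of 2, which draws low counts toward no change. In bulk RNA, fewer cells with a transcript and less transcript per cell cannot be told apart.

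Transcripts of 38 of the 39 genes were found in at least 1 library. HOXB1, an anterior gene of the hindbrain, was the exception, with 0 counts in all 3. At a one-sided 95% limit, that allows up to 3 counts in each library. HOXD3 (1, 0 and 0 counts), HOXD12 (1, 1 and 1), HOXD13 (0, 2 and 7) and HOXB5 (5, 6 and 10) were too low to be tested, which left 34 genes. All HOX genes together had 3492, 3435 and 3579 counts. As CPM, the control had 262 (95% Poisson limits, exact, 254 to 271). Library 1 of the knockdown had 242 (234 to 251) and library 2 had 230 (223 to 238).

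Levels were compared between genes as RPKM, which is CPM divided by the exon length in kilobases. HOXA5, a central gene needed for lung development, had the highest level in the control, 17.7 RPKM, against 11.9 and 22.8 in the knockdown libraries. HOXC13, known for its role in hair and nail keratins, followed with 10.3, 6.35 and 3.53. HOXC8 was next at 8.91, 8.96 and 9.90, then HOXA3 at 7.81, 5.96 and 3.25, HOXB7 at 6.88, 5.31 and 4.92, and HOXC10 at 6.80, 12.7 and 8.77. HOXB13, a prostate and hindgut gene, was at 5.63, 6.10 and 3.63. Of the 38 neighbouring pairs in this order, only HOXA5 and HOXC13 had control intervals that did not overlap, so most neighbours in the order do not differ beyond counting error. In the control 23 of the 39 genes reached 1 RPKM, as did 23 in library 1 and 19 in library 2. The order of levels was much alike in the libraries, with a Spearman correlation across the 39 genes of 0.944 between the control and library 1 and 0.897 between the control and library 2. These are descriptions, since the genes share libraries and are not independent replicates. RPKM uses the summed length of all annotated exons and understates genes with many alternative starts, such as HOXA3 and HOXB3.

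Levels did not run evenly from one end of a cluster to the other. In HOXA, the high genes HOXA3, HOXA5 and HOXA6 alternated with HOXA2 at 1.99 RPKM and HOXA4 at 0.129 RPKM in the control. In HOXB, HOXB7 and HOXB13 stood out. In paralog order, HOXB5 is anterior to both and HOXB8 lies between them, and these were at 0.184 and 0.146 RPKM in the control. In HOXC, HOXC8, HOXC10 and HOXC13 were high and HOXC4 (0.193 RPKM) and HOXC5 (0.666 RPKM) low. In HOXD the highest levels were those of HOXD9, HOXD10 and HOXD11 at 3.90, 2.23 and 1.92 RPKM.

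**Figure D1:**
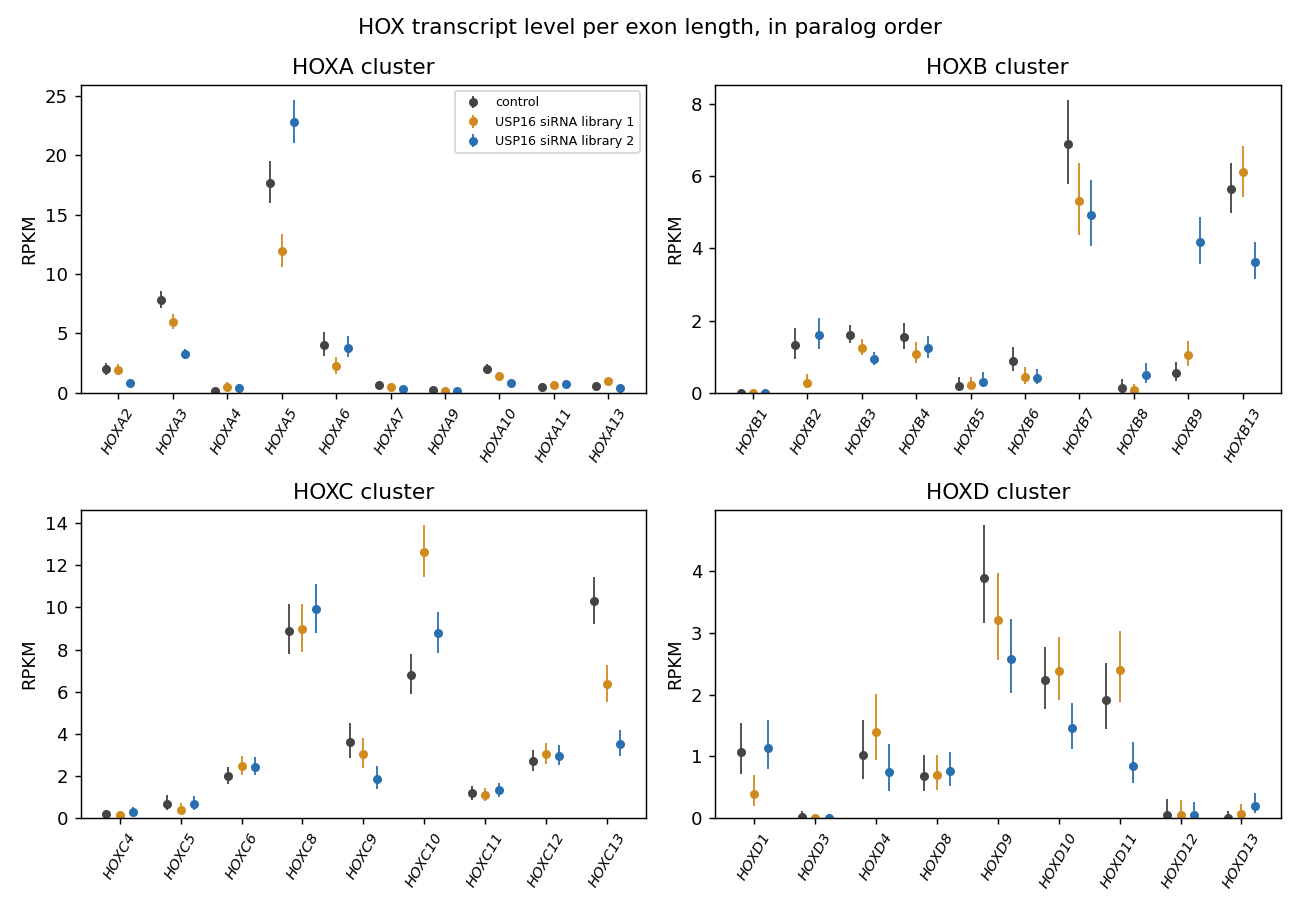
Level of the HOX genes drawn in RPKM (vertical axis, linear, a separate scale per cluster) against the genes in paralog order (horizontal axis), with 1 point per library and exact Poisson 95% intervals. HOXA5 is the highest gene of the control at 17.7 RPKM, and HOXB1 is at 0 in every library.

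No HOX gene passed the test of knockdown against control. Over 17287 genes, edgeR's quasi-likelihood test called 3 genes (0.0174%), and the adjusted p was 0.999 for each of the 34 HOX genes. HOXB9 was the only member with an unadjusted p under 0.05 (unadjusted p = 0.0245, edgeR), against 844 of all genes tested (4.88%). With 1 control library the fit has 1 residual degree of freedom, and the absence of a call does not show that levels were alike.

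By the log2 change with that prior count, 1 of 34 genes was at least 2-fold higher in both knockdown libraries (3.75% of all genes tested) and 0 were at least 2-fold lower in both (1.68%). By the plain ratio of scaled counts, HOXB6 was 2-fold lower in both as well. Of the 34, 9 were higher in both (33.4% of all genes tested), 13 were lower in both (33.5%) and 12 went opposite ways. HOXA9, among those lower, passed the filter on low counts only through the control, and HOXA4, among those higher, only through the knockdown libraries. The median log2 change was -0.25 in knockdown library 1 and -0.19 in knockdown library 2, where all genes tested had medians of 0.00 and -0.00. In the 11 members with a mean of at least 100 counts the medians were 0.01 and 0.13. Of these 11, 5 were higher in both (29.7% of all genes at that level) and 4 lower in both (36.6%). None of the 11 was 2-fold higher in both (1.36% of all genes at that level) or 2-fold lower in both (1.02%).

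In library 1, 14 HOX genes were higher (50.1% of all genes tested) and 20 lower (49.8%). HOXA4 was at least 2-fold higher there (7.05% of all genes tested), and HOXB2 and HOXD1 at least 2-fold lower (5.55%). In library 2, 16 were higher (49.7%) and 18 lower (50.3%). There, 3 were at least 2-fold higher (9.94%), namely HOXA4, HOXB8 and HOXB9. HOXA4 and HOXB8 passed the filter on low counts only through libraries in which they are high, so these counts are no support for a change. A further 6 were at least 2-fold lower (8.97%), namely HOXA2, HOXA3, HOXA10, HOXB6, HOXC13 and HOXD11. Both knockdown libraries are set against the same control, so their values are not independent. Knockdown library 2 had the larger absolute change for 22 of 34 HOX genes (58.3% of all genes tested). USP16 had its lower level in knockdown library 1, and a link between USP16 level and size of change was not tested.

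The counting intervals excluded a ratio of 1 for 15 HOX genes in knockdown library 1 (54.4% of all genes tested) and for 17 in knockdown library 2 (63.4%). They did so in the same direction in both libraries for 9 genes (32% of all genes tested). HOXB9 and HOXC10 were among the 3 that were higher in both, and HOXA3, HOXA10, HOXB3, HOXB6, HOXB7 and HOXC13 lower in both. These intervals leave out the variation between cultures.

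**Figure D2:**
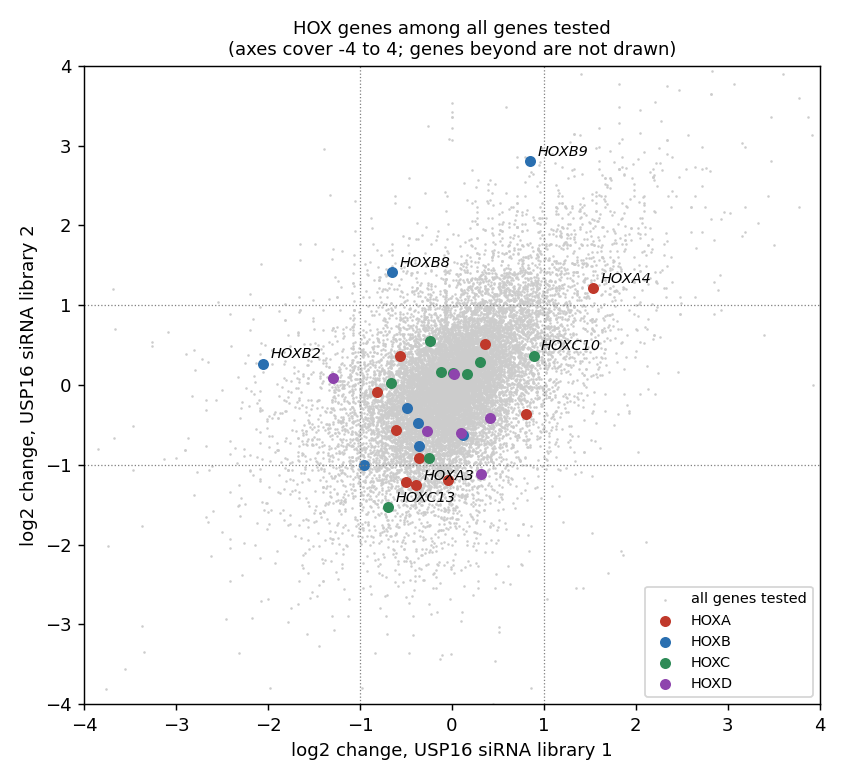
Log2 change against the control in knockdown library 1 (horizontal axis) and knockdown library 2 (vertical axis) for all genes tested (grey) and for the HOX genes drawn, coloured by cluster, with dotted lines at 2-fold. HOXA4 alone among the HOX genes drawn lies beyond 2-fold higher on both axes, and none lies beyond 2-fold lower on both.

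In the HOXA cluster, on chromosome 7 of hg38, 3 of 11 genes were higher and 6 lower in both knockdown libraries (33.4% and 33.5% of all genes tested). HOXA3 (27106184 to 27152581), a gene of pharyngeal arch development, had 448, 364 and 218 counts, or 0.763-fold (0.663 to 0.878) and 0.417-fold (0.353 to 0.491). Its log2 change averaged -0.82 ± 0.61 (SD, n = 2). The HOXA3 transcript unit spans HOXA4, HOXA5 and HOXA6, and 9.24% of its exon bases are shared with other genes on the same strand. HOXA5 had 402, 288 and 605 counts, or 0.673-fold (0.576 to 0.785) and 1.29-fold (1.13 to 1.47), so the control lay between the knockdown libraries.

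HOXA4, a central gene, had 3, 13 and 11 counts and was the member at least 2-fold higher in both libraries. Its ratios were 4.07 (1.12 to 22.3) and 3.14 (0.829 to 17.5), and the latter interval includes no change. It passed the filter on low counts through the knockdown libraries, so a lower value there would have left it out. Of the HOXA4 exon bases, 31.0% are shared with other genes on the same strand and 16.3% with genes on the other strand. Its few reads could therefore belong to another gene. Among the remaining HOXA genes, HOXA2 (65, 67 and 32 counts) and HOXA10 (98, 73 and 48 counts) were at 0.421-fold (0.267 to 0.653) and 0.419-fold (0.290 to 0.598) in knockdown library 2. HOXA6 had 69, 41 and 76 counts and HOXA13 had 39, 74 and 35, each with library 1 apart from the others. HOXA7 (21, 17 and 12, or 0.489-fold in library 2 with limits of 0.219 and 1.04), HOXA9 (11, 7 and 8) and HOXA11 (15, 21 and 26) were low throughout. HOXA9 passed the filter on low counts through the control alone, so its place among the lower genes is no support for a change.

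**Figure D3:**
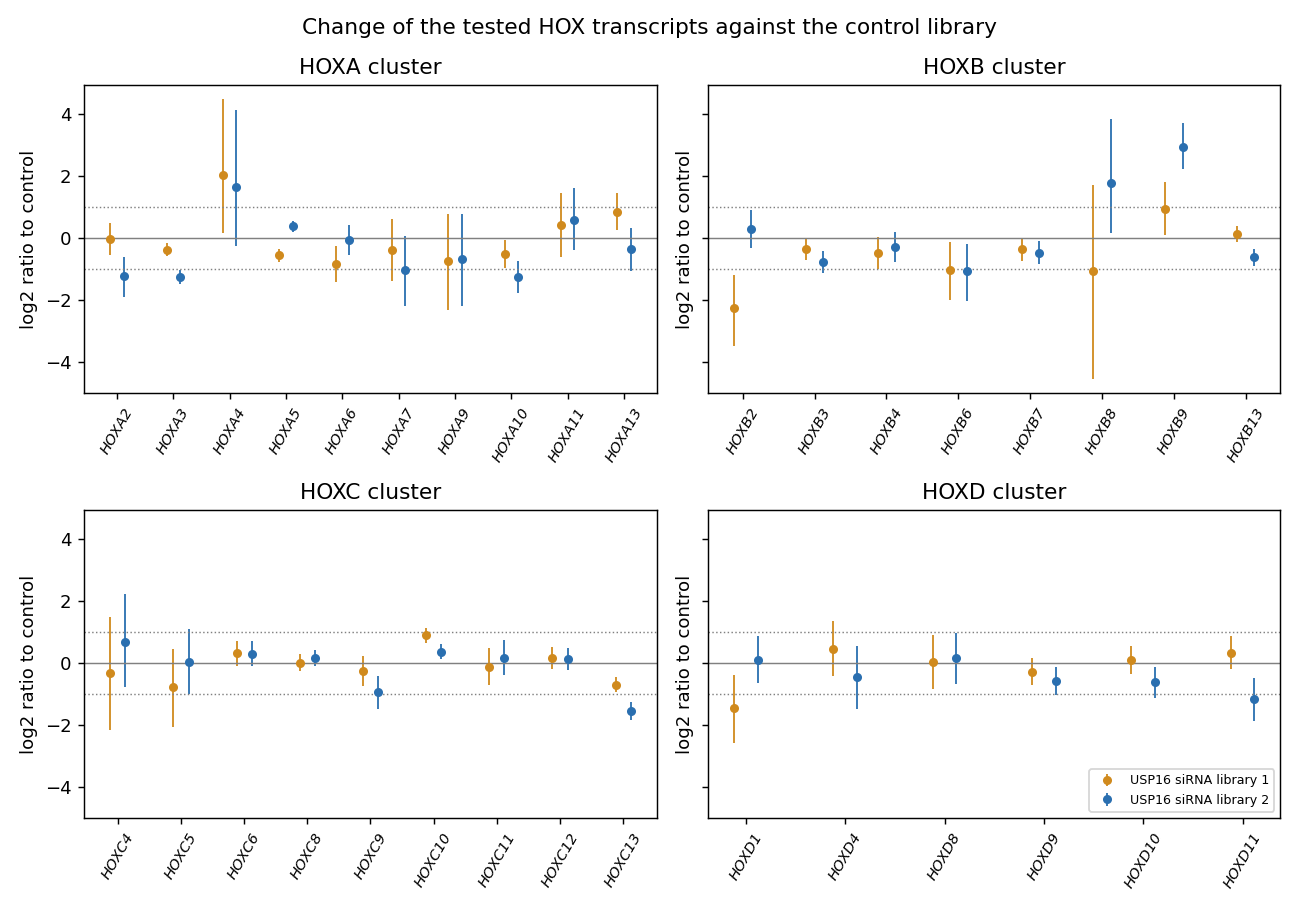
Log2 of the scaled count ratio to the control (vertical axis) for the tested HOX genes drawn, in paralog order (horizontal axis), with 1 point per knockdown library and exact 95% counting intervals, and dotted lines at 2-fold. HOXC13 and HOXA3 lie below 0 in both libraries and HOXC10 above 0 in both, while HOXB2 and HOXD1 are low in library 1 alone.

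In the HOXB cluster, on chromosome 17 from 48528526 to 48729178, 1 of 8 tested genes was higher and 4 were lower in both libraries, against the same background shares of 33.4% and 33.5%. HOXB9 (48621159 to 48626356), a posterior gene of thoracic patterning, had 19, 38 and 168 counts, or 1.88-fold (1.06 to 3.45) and 7.57-fold (4.70 to 12.9) the control. The count in library 2 lay far above the other libraries, and the log2 change averaged 1.83 ± 1.38 (SD, n = 2; edgeR adjusted p = 0.999). HOXB8, beside it, had 4, 2 and 16 counts. HOXB7 had 140, 115 and 117 counts (0.772-fold, 0.598 to 0.995, and 0.715-fold, 0.555 to 0.921), nearly the same in the knockdown libraries. HOXB3 had 160, 132 and 109 counts, or 0.775-fold (0.611 to 0.982) and 0.583-fold (0.453 to 0.749). HOXB6 had 31, 16 and 17 counts, or 0.485-fold (0.248 to 0.914) and 0.469-fold (0.244 to 0.875). With the prior count its log2 change in library 1 was -0.96, short of 2-fold. HOXB2, a hindbrain gene, had 41, 9 and 58 counts, low in library 1 only, and HOXB4 had 77, 58 and 73. HOXB13, which lies apart from the rest at the posterior end, had 260, 300 and 196 counts, or 1.08-fold (0.915 to 1.28) and 0.645-fold (0.533 to 0.780).

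In the HOXC cluster, on chromosome 12 from 53938765 to 54056030, 4 of 9 genes were higher (33.4% of all genes) and 2 lower (33.5%) in both libraries. HOXC13 (53938765 to 53946544), at the posterior end, had 332, 218 and 133 counts, or 0.617-fold (0.518 to 0.734) and 0.343-fold (0.278 to 0.421). Both knockdown libraries lay below the control, and the log2 change averaged -1.11 ± 0.59 (SD, n = 2; unadjusted p = 0.0602 and adjusted p = 0.999, edgeR). HOXC10 (53985065 to 53990279), a posterior gene of the hind limb, had 211, 418 and 318 counts, or 1.86-fold (1.57 to 2.21) and 1.29-fold (1.08 to 1.54), with both knockdown libraries above the control. HOXC12 (120, 143 and 154 counts), HOXC8 (224, 240 and 291) and HOXC6 (94, 124 and 135) had ratios between 1.01 and 1.24, and each interval included 1. HOXC9 had 81, 72 and 49 counts, HOXC11 had 51, 50 and 67, HOXC5 had 16, 10 and 19, and HOXC4 had 7, 6 and 13. HOXC4, HOXC5 and HOXC6 share exon bases with overlapping annotations on the same strand (17.8%, 59.9% and 15.7%), and reads there could belong to either gene.

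In the HOXD cluster, on chromosome 2 from 176092891 to 176190907, 1 of 6 tested genes was higher (33.4% of all genes) and 1 lower (33.5%) in both libraries. HOXD10 (176108790 to 176119942), the gene linked to USP16 before, had 80, 91 and 61 counts, or 1.07-fold (0.783 to 1.46) in library 1 and 0.653-fold (0.460 to 0.922) in library 2 (edgeR, adjusted p = 0.999). The control lay between the knockdown libraries. Its neighbour HOXD11 showed the same order with 54, 72 and 28 counts, and HOXD9 had 97, 85 and 75. HOXD1, at the anterior end, had 28, 11 and 35 counts, low in library 1 only. HOXD8 had 24, 26 and 31 counts and HOXD4 had 20, 29 and 17. HOXD4 shares 80.5% of its exon bases with other genes on the same strand, so reads there could belong to another gene.

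Summed by position, anterior genes (paralogs 1 to 3) were lower in both knockdown libraries, whereas central and posterior genes went opposite ways. Anterior genes were at 66.5 CPM in the control (62.2 to 71.1), 55.0 in library 1 (51.2 to 59.0) and 49.0 in library 2 (45.6 to 52.6). HOXA3 holds most of this difference. Central genes (4 to 8) were at 85.4 CPM (80.5 to 90.5), 69.9 (65.6 to 74.4) and 92.8 (88.1 to 97.7), which follows HOXA5. Posterior genes (9 to 13) were at 110 CPM (105 to 116), 117 (112 to 123) and 88.3 (83.7 to 93.1). All counts together, on this scale, came to 0.936 and 0.921 of the control, so a sum near these ratios is no lower than the library as a whole.

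By cluster, HOXA was at 98.7, 81.9 and 88.8 CPM and HOXB at 55.4, 47.7 and 49.1. HOXC was at 85.3, 90.4 and 75.8 CPM and HOXD at 22.9, 22.4 and 16.4. The ratio for HOXD in library 2 was 0.716 (0.604 to 0.848), and the ratios for the other clusters in either library lay between 0.830 and 1.06. Among paralog groups, group 13 (HOXA13, HOXB13, HOXC13 and HOXD13) summed to 631, 594 and 371 counts, or 0.503-fold (0.442 to 0.573) in library 2. Group 3 summed to 609, 496 and 327 counts, or 0.765-fold (0.678 to 0.863) and 0.460-fold (0.401 to 0.527), with HOXA3 and HOXB3 lower in both libraries. Other groups went the other way: group 10 summed to 389, 582 and 427 counts, or 1.41-fold (1.23 to 1.60) in library 1, and group 5 to 423, 304 and 634, or 1.28-fold (1.13 to 1.45) in library 2. Neighbouring tested genes on a chromosome had the same sign of change in 16 of 30 pairs in each library.

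**Figure D4:**
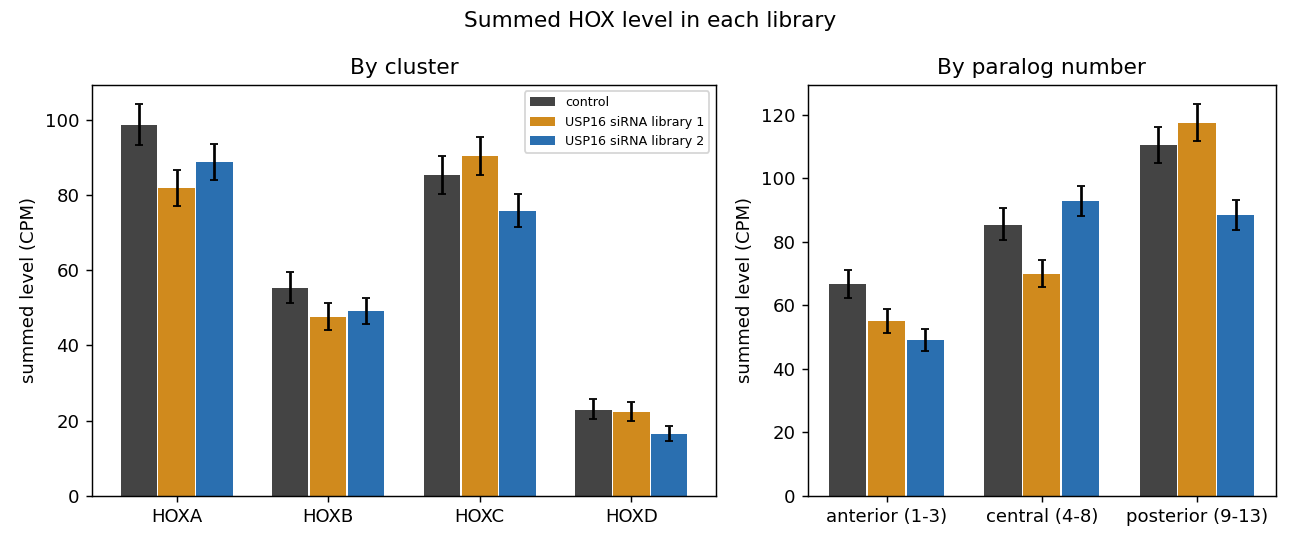
Summed level in CPM (vertical axis, from 0) of the HOX genes of each cluster (left) and of each class of paralog numbers (right) in the 3 libraries, with exact Poisson 95% intervals. Anterior genes are at 66.5, 55.0 and 49.0 CPM, and HOXD is the lowest cluster in every library.

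The clusters hold 36 other genes of the files, most of them noncoding. The 22 noncoding genes on the strand opposite to their cluster's HOX genes summed to 360, 432 and 796 counts, or 1.13-fold (0.978 to 1.3) and 1.89-fold (1.67 to 2.15). The rise in library 2 came mainly through HOTAIRM1 and HAGLR. In library 1 the largest rise among these genes was that of HOXA-AS2 (57, 86 and 68 counts). Of the 36, 12 passed the filter on low counts, some only through a knockdown library in which they are high, such as HOXC-AS3 (9, 7 and 26 counts). None of the 12 passed the test (edgeR, adjusted p = 0.999 for each). HOTAIRM1, a noncoding RNA of the HOXA cluster known from myeloid cells, had 75, 101 and 223 counts, or 1.27-fold (0.929 to 1.73) and 2.55-fold (1.95 to 3.35). Library 2 lay well above the other libraries. HAGLR, on the other strand of the HOXD cluster, had 97, 101 and 274 counts, or 0.978-fold (0.733 to 1.31) and 2.42-fold (1.91 to 3.08), while HOXD1, with which it shares a start region, had 28, 11 and 35. HOTAIR, the HOXC noncoding RNA that has been linked to Polycomb, had 56, 63 and 80 counts. HOXA11-AS had 3, 9 and 11 counts, at ratios whose limits of 0.703 to 16.2 and 0.829 to 17.5 include no change, and it too passed the filter only through the knockdown libraries. Whether counting used strand is not given in the sources used here. Of the 39 HOX genes, 19 share exon bases with a gene on the other strand. The largest shares were 62.5% of the bases in HOXA7, 58.1% in HOXD1, 39.3% in HOXA6 and 31.1% in HOXA11. If counting ignored strand, reads there could belong to the other gene.

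**Figure D5:**
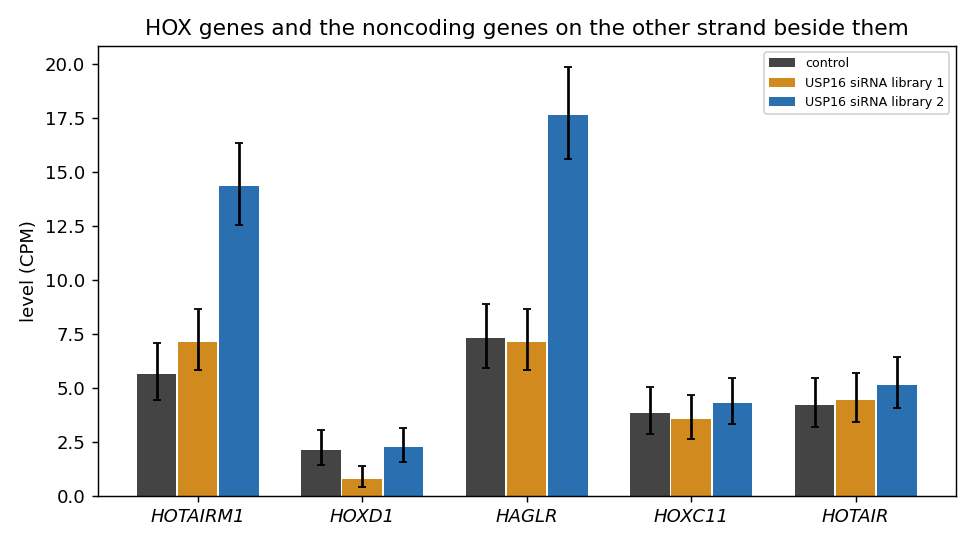
Level in CPM (vertical axis, from 0) of the noncoding genes HOTAIRM1, HAGLR and HOTAIR and of HOXD1 and HOXC11, which lie beside HAGLR and HOTAIR on the other strand, in the 3 libraries, with exact Poisson 95% intervals. HOTAIRM1 and HAGLR are highest in knockdown library 2, where HOXD1 is close to the control.

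The coding genes that flank the clusters, 3 on each side, had medians of -0.07 and 0.14 over the 21 of 24 that were tested. Of these, 7 were higher (33.4% of all genes) and 4 lower (33.5%) in both libraries, and none passed the test or was 2-fold changed in both. The flanking homeobox genes EVX1 (1, 0 and 0 counts) and EVX2 (3, 2 and 0) were nearly silent.

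The sequences around the starts of HOX genes were also read. RefSeq promoter windows on GRCh38.p14, from 250 bases before to 50 after the start, were found for 20 HOX genes. They made 26 distinct windows, 1 of them listed under both HOXC4 and HOXC5. Most were in HOXA, where HOXA3 had several, and in HOXD. HOXB was covered only by HOXB1, and HOXC only by the shared window. The windows of all genes were not reduced to distinct ones. In 19 of the 26 (73.1%), G and C made up over 50% of the bases and CpG was at over 0.6 of the number expected from base content, as in 46.8% of 35116 windows of all genes. The median window held 22.5 CpG, against 14 over all genes. Polycomb complexes in mammals are known to gather at such CpG-rich starts. The windows of HOXA4, the member at least 2-fold higher in both libraries, of HOXA2, at 0.968-fold in library 1 and 0.421-fold in library 2, and of HOXD1, whose start HAGLR shares, are printed with each CpG in capitals. HOXA4 lies at chr7:27130708-27131007 on the minus strand with 27 CpG, HOXA2 at chr7:27102634-27102933 on the minus strand with 11, and HOXD1 at chr2:176188418-176188717 on the plus strand with 36.
HOXA4: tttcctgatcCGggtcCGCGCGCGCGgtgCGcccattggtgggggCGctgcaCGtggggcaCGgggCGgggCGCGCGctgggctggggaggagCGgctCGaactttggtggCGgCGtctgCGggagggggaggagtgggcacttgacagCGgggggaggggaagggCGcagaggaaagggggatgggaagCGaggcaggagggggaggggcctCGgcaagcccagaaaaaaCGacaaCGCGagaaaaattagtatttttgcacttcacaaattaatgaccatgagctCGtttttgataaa
HOXA2: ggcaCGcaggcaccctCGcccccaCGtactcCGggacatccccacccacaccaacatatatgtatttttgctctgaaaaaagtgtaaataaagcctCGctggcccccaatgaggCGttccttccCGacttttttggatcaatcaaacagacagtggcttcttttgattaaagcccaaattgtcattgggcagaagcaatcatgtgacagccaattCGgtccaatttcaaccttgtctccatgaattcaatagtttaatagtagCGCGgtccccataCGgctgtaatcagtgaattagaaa
HOXD1: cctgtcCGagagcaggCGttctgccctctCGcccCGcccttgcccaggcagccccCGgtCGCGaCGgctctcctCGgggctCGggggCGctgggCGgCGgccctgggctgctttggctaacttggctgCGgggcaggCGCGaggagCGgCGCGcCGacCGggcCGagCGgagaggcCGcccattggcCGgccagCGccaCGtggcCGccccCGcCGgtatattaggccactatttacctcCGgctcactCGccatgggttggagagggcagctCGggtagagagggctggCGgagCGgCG

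The HOXA2 window holds few CpG and has a match to TGATTNAT, the sequence that HOX and PBX proteins bind together, searched on both strands. Matches were found in 2 of the 26 HOX windows (HOXA2 and HOXD11, 7.69%) and in 2.82% of all windows. A match is a description of the letters and no evidence of binding. The HOXD1 window overlaps 2 of the 4 start windows of HAGLR.

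The clusters also carry microRNAs that act on HOX transcripts, with 8 hairpins in RefSeq. The libraries were made for mRNA, and the miRNAs themselves were not measured. miR-196a, encoded between HOXB9 and HOXB13 and again in the HOXC cluster, and miR-196b, in the HOXA cluster, share a seed, shown in capitals (bases 2 to 8), which miR-10a of the HOXB cluster does not.
hsa-miR-196a-5p: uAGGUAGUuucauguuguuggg
hsa-miR-196b-5p: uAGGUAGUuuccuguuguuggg
hsa-miR-10a-5p: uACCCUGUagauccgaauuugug

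HOXB8 is the known target that miR-196a cuts through almost full pairing. A search of the GENCODE transcripts of all 39 genes found the best ungapped match in HOXB8, where 21 of 22 bases form Watson-Crick pairs with miR-196a and the remaining one forms a G:U pair. The median best match over the 39 genes had 13 pairs. The site starts at base 1378 of the HOXB8 transcript of 1823 bases and is printed with the Watson-Crick paired bases in capitals.
HOXB8 site: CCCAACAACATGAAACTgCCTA

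HOXB8 had 4, 2 and 16 counts, HOXA7, with 15 pairs, had 21, 17 and 12, and HOXD8, with 14 pairs, had 24, 26 and 31. HOXB3, HOXA9 and HOXB6 also had 14 pairs, which is close to the median best match of the HOX genes. Only the best-ranked matches were kept, so other HOX genes may also have 14 pairs. HOXB3, HOXA9, HOXB6 and HOXA7 were lower in both knockdown libraries (33.5% of all genes tested), HOXA9 having passed the filter only through the control. As the list was cut, these directions do not describe all genes with such matches. HOXD8 was slightly higher in both and HOXB8 went opposite ways. The search ranked total pairs and did not ask for a paired seed. All seed bases (2 to 8) were paired in the HOXA7 and HOXA9 matches. The G:U pair of HOXB8 lay within the seed, and the matches in HOXB3, HOXB6 and HOXD8 left seed bases unpaired. The number of pairs alone is no evidence of a miR-196 target, and an effect of miR-196 was not tested.

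Genes that work with or on HOX genes were taken from lists. None of their members passed the test (edgeR, over all genes tested). The counts of members higher or lower in both libraries stand against 33.4% and 33.5% of all genes tested. Of 8 tested TALE cofactors, the homeodomain partners that HOX proteins bind DNA with, the medians were -0.06 and -0.22. In both libraries, 2 were higher and 4 lower. PKNOX1 had 337, 233 and 253 counts and PBX3 had 295, 271 and 163. Of 33 tested Polycomb genes, 14 were lower in both (33.5% of all genes) and 9 higher (33.4%), and the medians were -0.07 and -0.12. PHC1, a subunit of the complex that ubiquitinates H2A, had 874, 493 and 300 counts (log2 changes -0.91 and -1.76), and JARID2, a cofactor of the H3 methylating complex, had 390, 710 and 794 (0.77 and 0.80). KDM2B, which brings Polycomb to CpG-rich DNA, had 315, 715 and 475 (1.09 and 0.37). Of 19 trithorax genes and activators, 5 were lower in both and 3 higher, and the median was -0.02 in each library. The H3 methyltransferase genes KMT2B and KMT2D had 1979, 1957 and 1568 counts and 6510, 5406 and 7107 counts.

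Of 15 tested retinoic acid genes, whose pathway switches on anterior HOX genes in the embryo, 7 were lower in both libraries (33.5% of all genes) and 5 higher (33.4%). The 2 that were at least 2-fold higher in both (3.75% of all genes), CRABP1 (14, 58 and 64 counts) and ALDH1A2 (6, 15 and 37), were low in the control. ALDH1A2 passed the filter on low counts only through the knockdown libraries, so its place among these is no support for a change. CYP26B1, which degrades retinoic acid, had 368, 224 and 93 counts (-0.80 and -2.18). RARB, a receptor gene that retinoic acid induces, had 373, 254 and 146 (-0.64 and -1.56), and the retinol transporter gene STRA6 had 1023, 527 and 752 (-1.04 and -0.67). CYP26B1 and RARB had the order of libraries seen for HOXA3, and STRA6 did not. Among anterior HOX genes, HOXB3 had that order too, while HOXA2, HOXB2 and HOXD1 did not. How many of all genes have it was not counted, and a link was not tested. Of 8 CTCF and cohesin genes, which shape the loops of the clusters, none was lower in both libraries (33.5% of all genes) and 6 were higher (33.4%), and the medians were 0.18 and 0.32. SMC3 had 2132, 3576 and 4873 counts (0.66 and 0.97), STAG2 had 2622, 4083 and 5330 (0.55 and 0.80), and SMC1A had 1977, 2991 and 3087 (0.51 and 0.42). Of 13 HOX-related homeobox genes outside the clusters, 5 were tested, and 3 of these were lower in both libraries and 0 higher.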

How the data were processed

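RNA from 3 NCI-H23 samples was sequenced as mRNA libraries, per the labels' protocols. The deposited files hold whole-number counts per gene, not normalized. The build hg38 and the tools HISAT2 2.0.4 and StringTie 1.3.0 are named, without their roles, in the submitters' processing notes. How reads were counted, with which annotation and whether by strand is not given in the sources used here. Positions and exon lengths came from GENCODE 29 (hg38), which held 98.5% of gene identifiers and all 39 members, and promoters and miRNAs from RefSeq (GRCh38.p14). A comparison of HOX proteins was not run. The values of 1 member and of 1 listed gene are not reported here and are left out of the gene plots, but stay in counts, medians and sums.

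Genes were filtered with filterByExpr of edgeR 4.0.16 (R 4.3.3), scaled by TMM (factors 0.952, 1.02 and 1.03) and tested by the quasi-likelihood F-test, with Benjamini-Hochberg adjustment over all 17287 genes and a threshold of 0.05. Log2 changes per library are differences of log2 CPM with a prior count of 2; ratios and CPM carry exact 95% intervals for counting error only. The procedure was tested on simulated counts. Alternatives were other filters, scalings and prior counts, DESeq2 1.42.0 and leaving out each knockdown library.

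Members and lists were chosen with earlier results of these data known. Full values were set for members with a mean of at least 100 counts, members 2-fold changed in both libraries and HOXD10, for noncoding genes of the clusters with a mean of at least 100 counts, or of at least 20 and 2-fold changed in both, and for up to 3 genes of each list with the largest change of the same sign and at least 100 counts.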

Additional observations from a re-analysis of the deposited data

How the results depend on the processing

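No HOX gene passed an adjusted p of 0.05 in edgeR or DESeq2 under any filter or scaling tried, and the lowest adjusted p was 0.291, with no filter on low counts. Over all genes, calls changed from 0 higher and 3 lower to 40 and 30 with no filter, 4 and 5 with library totals only, and 8 and 6 with DESeq2, and the 3 lower to 1 with a mean of at least 100 counts. USP16 was called with no filter (mean log2 change -2.10, edgeR adjusted p = 0.0188; 0.561 as reported). HOX genes at least 2-fold higher in both libraries were 2 with no filter, 0 with a mean of at least 100 counts and 0 with a prior count of 10, and 1 was 2-fold lower in both with a prior count of 0.5. A mean of at least 100 counts leaves 11 HOX genes, 5 higher and 4 lower in both, with medians of 0.037 and 0.18, positive where those reported are negative. The medians in libraries 1 and 2 were -0.18 and -0.088 with no filter and -0.16 and -0.072 with library totals, and -0.18 in library 1 with a prior count of 10.

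With library totals only, the ratios in library 2 were 0.977 for HOXA, 0.965 for HOXC, 1.18 for central genes and 0.870 for posterior genes, and the mean change of HOXA5 became 0.0049. With knockdown library 1 or 2 left out, values have no test: 1 to 3 genes were 2-fold higher, 2 to 5 lower, 14 to 16 higher and 18 to 20 lower. The sign of the mean turned for HOXA5 (-0.57 to 0.37), HOXB13 (-0.62 to 0.12), HOXD10 (-0.59 to 0.093) and HAGLR (-0.031 to 1.26). No paired analysis was possible because there is 1 control library and its label carries no replicate number. Depth limits the low members most: with 3 control counts, the interval of HOXA4 in library 2 ran from 0.829 to 17.5.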
